A study of Mus musculus with 8 samples.

Results

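Macrophage lineage and colony stimulating factor (CSF) genes were followed in mouse uterus just before embryo attachment. They were 9 genes taken by name: the macrophage genes Adgre1, Cd68, Lyz2, Ly86, Aif1 and Cd163, the receptor Csf1r with its ligand Csf1, and the receptor subunit Csf2rb. Each had 1 probe set with a single gene symbol, and these 9 stood among 19938 genes so named on the array. The pregnant group held 4 uteri of C57BL/6 females mated with stud males, free of blue dye sites and holding blastocysts that were flushed out. The pseudopregnant group held 4 uteri of C57BL/6 females mated with vasectomized males, a model with seminal fluid and ovarian hormone changes but no embryo. All 8 were collected on day 3 at 22 h after a mating night counted as day 0, as whole uterus, and are labelled as biological replicates with 1 array each. The males differed with the groups, so the mating and the embryos cannot be told apart.

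Macrophages arise from blood monocytes or from cells seeded before birth, and CSF1 acting through the receptor kinase CSF1R maintains them. In the mouse uterus, macrophages lie in the stroma and muscle and clear cell debris, and CSF1 made by the uterus under ovarian hormones is known to govern their number. The beta subunit encoded by Csf2rb belongs to a second route, the receptors of GM-CSF, interleukin 3 and interleukin 5, which act on granulocytes and on monocyte-derived cells.

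The samples are labelled as uterus. The 6 epithelial, 7 stromal and 5 smooth muscle markers listed for uterus all passed the intensity filter. So did 17491 of the 28939 probe sets other than controls, so passing does not by itself identify the tissue. That filter asked for an intensity above the array's 40th percentile, which fell at 5.23 to 5.32 on the log2 scale, on at least 4 of 8 arrays. Median intensities lay between 55.2 and 56.3. Pregnant replicate 2 stood apart on the first principal component (-26.69, where pregnant replicates 1, 3 and 4 had -6.63 to -4.90). Pseudopregnant replicate 1 also lay away from its group (20.28, where pseudopregnant replicates 2, 3 and 4 had 6.76 to 9.32). Differences of named genes that moved by over 1.5 times, or calls that ended, without pregnant replicate 2 are given with and without it. Of the 9 genes, 7 lay above the line on all 8 arrays. Aif1 and Cd163 lay below it on all 8, so these 2 macrophage markers were not measured above the dim end of the array and were not tested.

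Promoter sequences from RefSeq (GRCm38.p6) were matched by symbol for 6 of the 9 genes: Cd68, Ly86, Lyz2, Csf1, Aif1 and Cd163. The 250 bases before the start of Cd68, Ly86 and Lyz2 are shown because the 2 groups did not overlap for these macrophage genes, and those of Csf1 because it is the ligand of the lineage. Capitals mark matches, on either strand, to GAGGAA, the core bound by the macrophage factor PU.1, to TGANTCA, bound by AP-1, and to CACGTG, the E-box read by MITF family factors.
Cd68 promoter, chr11:69666171-69666420, minus strand: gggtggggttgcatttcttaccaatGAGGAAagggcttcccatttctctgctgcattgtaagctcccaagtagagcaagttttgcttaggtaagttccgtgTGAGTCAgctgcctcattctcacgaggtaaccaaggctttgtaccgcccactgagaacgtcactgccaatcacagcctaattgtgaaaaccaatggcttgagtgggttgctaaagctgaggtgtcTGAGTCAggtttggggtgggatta
Ly86 promoter, chr13:37345095-37345344, plus strand: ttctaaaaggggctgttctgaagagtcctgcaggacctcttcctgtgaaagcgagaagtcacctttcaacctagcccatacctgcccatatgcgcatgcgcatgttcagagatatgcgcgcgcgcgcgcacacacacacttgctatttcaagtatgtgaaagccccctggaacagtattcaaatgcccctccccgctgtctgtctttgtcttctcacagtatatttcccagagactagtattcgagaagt
Lyz2 promoter, chr10:117282273-117282522, minus strand: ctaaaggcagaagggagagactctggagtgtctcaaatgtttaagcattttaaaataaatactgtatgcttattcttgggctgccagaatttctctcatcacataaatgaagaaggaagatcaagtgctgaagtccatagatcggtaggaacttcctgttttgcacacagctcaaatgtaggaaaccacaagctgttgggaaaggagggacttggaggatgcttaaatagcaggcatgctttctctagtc
Csf1 promoter, chr3:107760470-107760719, minus strand: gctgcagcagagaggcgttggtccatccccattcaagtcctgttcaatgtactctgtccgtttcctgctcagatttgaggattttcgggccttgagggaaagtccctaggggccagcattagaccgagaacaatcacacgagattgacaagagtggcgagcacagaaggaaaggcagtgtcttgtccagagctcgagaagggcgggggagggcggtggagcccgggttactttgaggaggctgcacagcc
Cd68 held 1 match to GAGGAA, starting 225 bases before the gene, and 2 matches to TGANTCA, at 149 and 24 bases. The windows of Ly86, Lyz2 and Csf1 held none of the 3 motifs. Over all 6 genes with a window, GAGGAA stood in Cd68 and Aif1, against 23.3% of the 32851 promoters of the table. TGANTCA stood in Cd68 alone and in 6.75% of the table, and CACGTG in 0 of 6 and in 6.02%.

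Of the 9 genes, 3 macrophage genes rose in the pregnant uterus. Adgre1, Cd68 and Ly86 rose by 1.54-fold, 1.39-fold and 1.61-fold, while Lyz2 was 1.48-fold higher and just missed the threshold. The receptor Csf1r was 1.15-fold higher and its ligand Csf1 1.07-fold higher, neither past the threshold, and the difference of Csf2rb lay below 0. A gene is said to have risen or fallen where limma, fitted over all 17491 kept probe sets, gave an adjusted p under 0.05 (Benjamini-Hochberg). By that rule 3 of the 7 tested genes rose and 0 fell, where 1.41% of all kept probe sets rose and 0.412% fell, 1.82% in either direction. For 5 of the 7 every pregnant array lay above every pseudopregnant one, and for 0 of 7 below, where 9.23% and 5.39% of all kept probe sets did so. The median log2 difference of the 7 was 0.48, against 0.00 over all kept probe sets, and 6 of 7 lay above 0, as did 50.6% of all. The 9 genes were chosen with earlier results of these data known, so these shares are no independent test. The count of 3 became 2 without pregnant replicate 2, 1 without any of pregnant replicates 1, 3 and 4 and pseudopregnant replicate 4, and 0 without any of the other 3 pseudopregnant arrays.

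Adgre1 encodes the adhesion receptor long used to stain mouse tissue macrophages. Its log2 intensities were 7.00, 7.37, 7.13 and 7.45 in pregnant replicates 1 to 4, against 6.63, 6.52, 6.58 and 6.73 in pseudopregnant replicates 1 to 4. Every pregnant array lay above every pseudopregnant one, by 0.27 at the nearest, and pregnant replicate 4 was the highest. The means were 7.24 ± 0.21 and 6.61 ± 0.09 (SD, n = 4 each), a log2 difference of 0.62 ± 0.099 (SE, limma adjusted p = 0.025), or a fold of 1.54 with a 95% interval of 1.32 to 1.79. Without pregnant replicate 2 the difference was 0.58 (adjusted p = 0.047). The call ended without pseudopregnant replicate 1, 2 or 3 (adjusted p = 0.072, 0.055 and 0.064), with differences of 0.59 to 0.63, and without the intensity filter (0.052).

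Cd68 encodes macrosialin, a glycoprotein of the lysosomes of macrophages. It stood at 7.36, 7.84, 7.44 and 7.45 in pregnant replicates 1 to 4, against 6.96, 7.05, 7.05 and 7.12 in pseudopregnant replicates 1 to 4. The groups did not overlap, and pregnant replicate 2 lay above the other 3 pregnant arrays, which were close together. Cd68 rose by a log2 difference of 0.48 ± 0.099 (SE, limma adjusted p = 0.045). Without pregnant replicate 2 the difference was smaller, 0.37, and still passed (adjusted p = 0.038). It failed when any one of the other 7 arrays was left out (adjusted p between 0.058 and 0.12), under a replicate block (0.054), with cyclic loess (0.052) and with every probe set kept (0.079).

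Ly86 encodes MD-1, the secreted partner of the Toll-like receptor relative CD180. Its values were 8.15, 8.68, 8.68 and 8.25 in pregnant replicates 1 to 4, against 7.74, 7.46, 7.89 and 7.93 in pseudopregnant replicates 1 to 4. Here pregnant replicates 2 and 3 were both high, and the groups were 0.22 apart at the nearest. Ly86 rose by 0.68 ± 0.14 (SE, limma adjusted p = 0.045), with a 95% interval of 0.37 to 1.00. Without pregnant replicate 2 the difference was 0.61 (limma adjusted p = 0.082). Leaving out any single array ended the call (adjusted p between 0.050, just above the threshold, and 0.11), while the difference stayed between 0.59 and 0.78; it also ended with the replicate block (0.065), with cyclic loess (0.054) and without the filter (0.078). Cd180 itself, listed with the Toll-like receptor genes, rose by 0.60 ± 0.096 (adjusted p = 0.026), with 6.59, 6.83, 6.55 and 6.42 in pregnant replicates 1 to 4, against 5.84, 5.92, 6.08 and 6.14 in pseudopregnant replicates 1 to 4.

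Lyz2 encodes the lysozyme of macrophages and neutrophils, which cuts bacterial cell walls. It had 8.59, 9.16, 8.64 and 8.77 in pregnant replicates 1 to 4, against 7.92, 8.07, 8.46 and 8.45 in pseudopregnant replicates 1 to 4. The groups did not overlap, but the pseudopregnant arrays were split, replicates 1 and 2 being lower than 3 and 4. The difference of 0.57 ± 0.15 (SE) did not pass (limma adjusted p = 0.071), with a 95% interval of 0.23 to 0.90. Its neighbour Lyz1 has a close copy of the sequence, so the probe sets may share signal. Lyz1 differed by 0.20 ± 0.14 (adjusted p = 0.40).

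**Figure D1:**
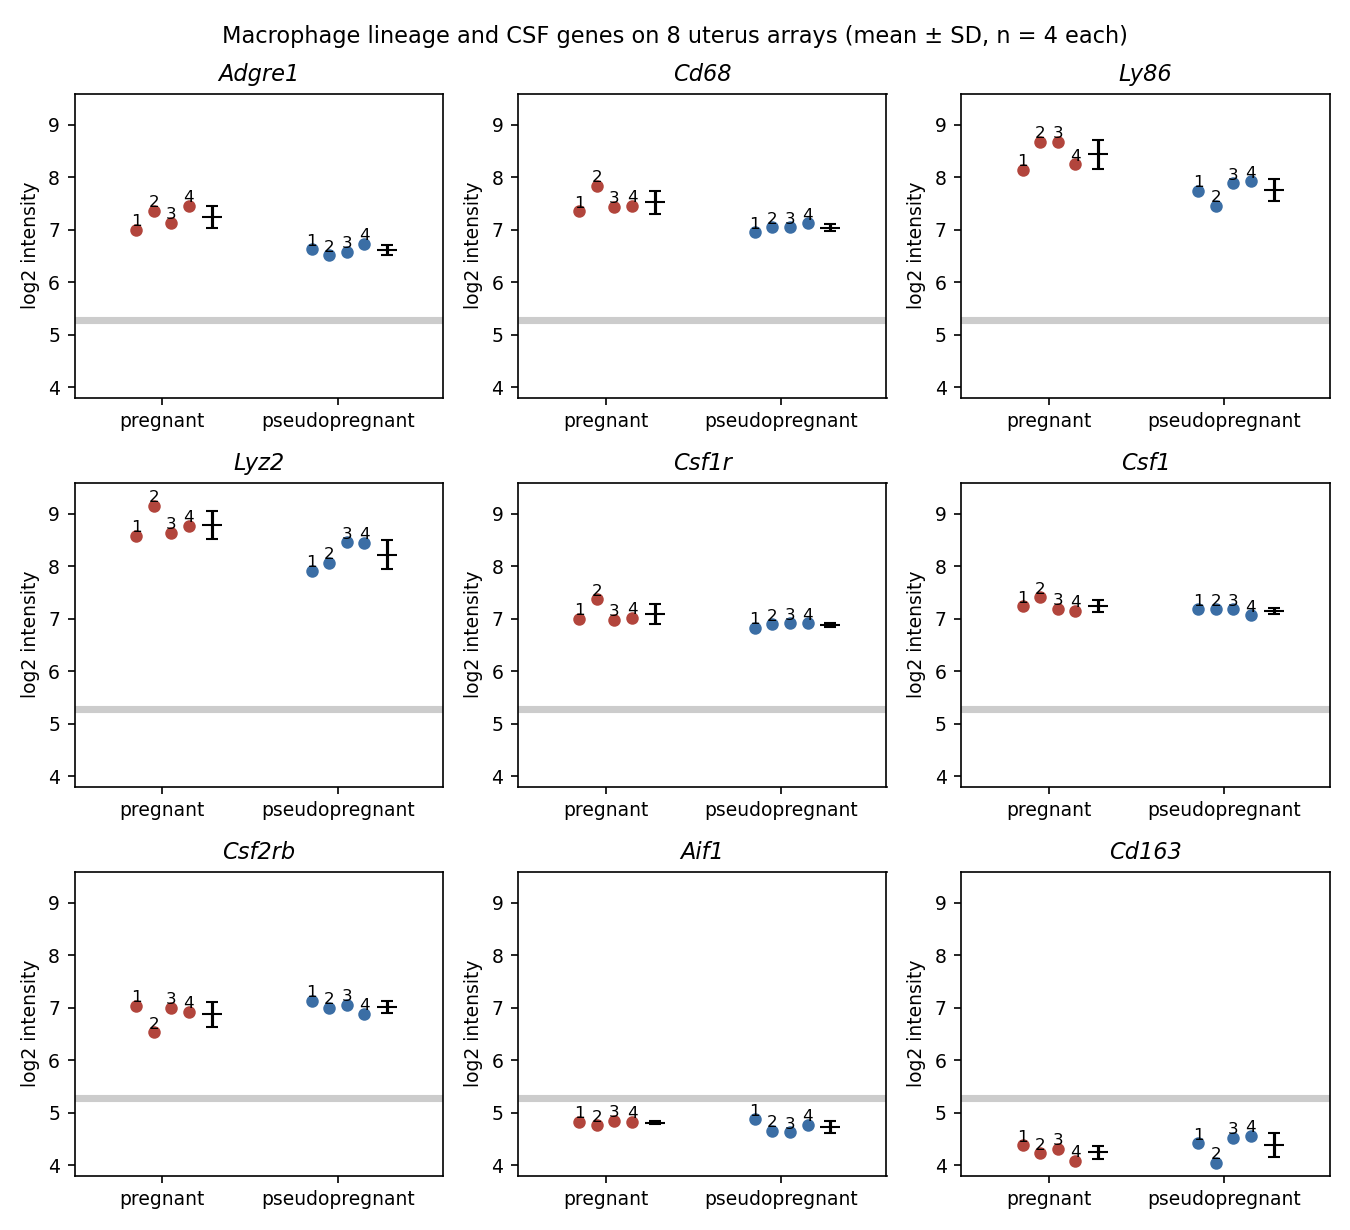
Log2 intensity of the 9 genes on each array, pregnant left of pseudopregnant, with the replicate number above each point and the mean ± SD (n = 4 each) beside it; the grey band is the 40th percentile of the 8 arrays. The groups do not overlap for Adgre1, Cd68, Ly86, Lyz2 and Csf1r, and all points of Aif1 and Cd163 lie under the band.

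Csf1r encodes the receptor through which its ligands CSF1 and IL34 keep macrophages alive. It stood at 7.00, 7.37, 6.98 and 7.02 in pregnant replicates 1 to 4, against 6.83, 6.90, 6.91 and 6.92 in pseudopregnant replicates 1 to 4. Pregnant replicate 2 alone was far above the rest, and the other pregnant arrays were above the pseudopregnant ones by little, 0.06 at the nearest. The difference of 0.20 ± 0.086 (SE) did not pass (limma adjusted p = 0.19), with a 95% interval of 0.01 to 0.39. Without pregnant replicate 2 it was 0.11 (adjusted p = 0.29).

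Csf1, the ligand, is made in the mouse uterus mainly by the epithelium. It had 7.24, 7.41, 7.19 and 7.15 in pregnant replicates 1 to 4, against 7.18, 7.18, 7.18 and 7.07 in pseudopregnant replicates 1 to 4. The groups overlapped, with pregnant replicate 2 the highest and pseudopregnant replicate 4 the lowest array. The difference was 0.09 ± 0.066 (SE, limma adjusted p = 0.41), with a 95% interval of -0.05 to 0.24, and 0.04 without pregnant replicate 2. The other CSF1R ligand, Il34, differed by -0.06 ± 0.060 (adjusted p = 0.60), and by -0.08 without that array.

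Csf2rb gave a different picture. Its values were 7.04, 6.53, 7.00 and 6.93 in pregnant replicates 1 to 4, against 7.14, 7.00, 7.05 and 6.88 in pseudopregnant replicates 1 to 4. Pregnant replicate 2, the highest array of its group for Cd68, Lyz2, Csf1r and Csf1, was the lowest for Csf2rb. The difference was -0.14 ± 0.11 (SE, limma adjusted p = 0.45), with a 95% interval of -0.38 to 0.10, and -0.03 without that array. Csf2rb2, the adjoining gene with a near-identical product that serves interleukin 3 in mice, differed by -0.18 ± 0.14 (adjusted p = 0.45) and was also lowest in pregnant replicate 2 (6.38), without which it differed by -0.05. The 2 probe sets may share signal. The alpha subunit Csf2ra, which binds GM-CSF, differed by 0.13 ± 0.078 (adjusted p = 0.33).

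The genes of the CSF family beside these did not pass either. Of 14 further ligands and receptors, 8 were measured, 0 passed in either direction (limma; 1 at an unadjusted p under 0.05, where 23.7% of all kept probe sets had one), and their median difference was -0.07. That gene was Flt3, the receptor of dendritic cell precursors, at 0.19 ± 0.083 (adjusted p = 0.21), and its ligand Flt3l differed by 0.09 (0.27). Kitl, the stem cell factor, differed by -0.11 (0.29). The ligands Csf2, Csf3, Il3 and Il5 and the receptors Csf3r and Il5ra lay below the 40th percentile on all 8 arrays.

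**Figure D2:**
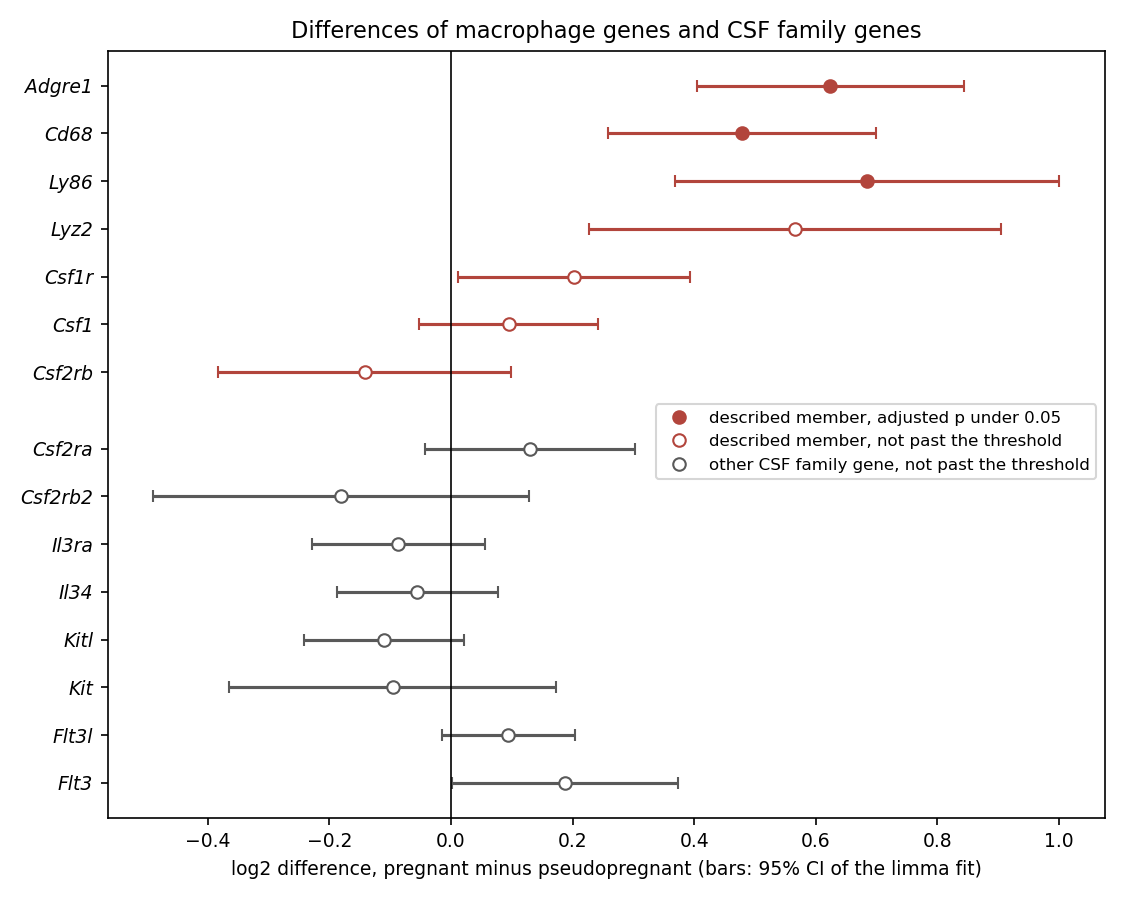
Log2 difference, pregnant minus pseudopregnant, with its 95% interval from the limma fit, for the 7 tested genes (red, filled where the adjusted p was under 0.05) and 8 further CSF family genes (grey). Adgre1, Cd68, Ly86 and Lyz2 lie at 0.48 to 0.68, and the CSF ligands and receptors, Csf1r included, between -0.18 and 0.20.

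Whether the macrophage genes moved more than the CSF genes was tested on the log2 ratio of 2 genes within each array. Csf1r is itself a macrophage lineage marker but was placed with the CSF genes here. As Aif1 and Cd163 were not tested, the macrophage side held only Adgre1, Cd68, Ly86 and Lyz2. The contrast depends in part on that grouping. All 21 pairs of the 7 genes were compared by two-sided exact permutation tests, whose smallest p over the 70 arrangements is 0.029. Adgre1 over Csf1r was higher in pregnant uterus by 0.42, Cd68 over Csf1r by 0.28 and Ly86 over Csf1r by 0.48, each without overlap of the groups (exact permutation p = 0.029). Adgre1 over Csf1 was higher by 0.53 and Cd68 over Csf1 by 0.38 (exact permutation p = 0.029 each). Lyz2 over Csf1r was higher by 0.36 without overlap (exact permutation p = 0.029), but Lyz2 over Csf1 (0.47) and over Csf2rb (0.71) had overlapping groups (exact permutation p = 0.057 each). Adjusted over the 21 pairs, the 11 pairs at the smallest p had 0.055 and 0 passed. Not all of these 11 set a macrophage gene over a CSF gene. Csf1 over Csf2rb was higher by 0.24 without overlap (exact permutation p = 0.029). Csf1r over Csf2rb was higher by 0.34 with overlapping groups (exact permutation p = 0.086). Csf1r over its ligand Csf1 differed by 0.11 (exact permutation p = 0.14, adjusted 0.20). Among Adgre1, Cd68, Ly86 and Lyz2 the exact permutation p lay between 0.23 and 0.74, with differences of 0.06 to 0.21. A probe set's response to a given change of RNA can differ from another's, and such ratios carry this with them.

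Within the groups the 7 genes did not follow 1 order of the arrays. Pregnant replicate 2 was the highest pregnant array for 4 of 7 genes, and pregnant replicate 1 was the lowest for 4 of 7. Ly86 was highest in pregnant replicate 3 and Adgre1 in pregnant replicate 4. Among the pseudopregnant arrays, replicate 4 was the highest for 4 of 7 genes and replicate 1 the lowest for 3. The spread was wider in pregnant than in pseudopregnant uterus for Cd68 (SD 0.22 and 0.07), Csf1r (0.19 and 0.04) and Adgre1 (0.21 and 0.09), and about equal for Lyz2 (0.26 and 0.27).

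**Figure D3:**
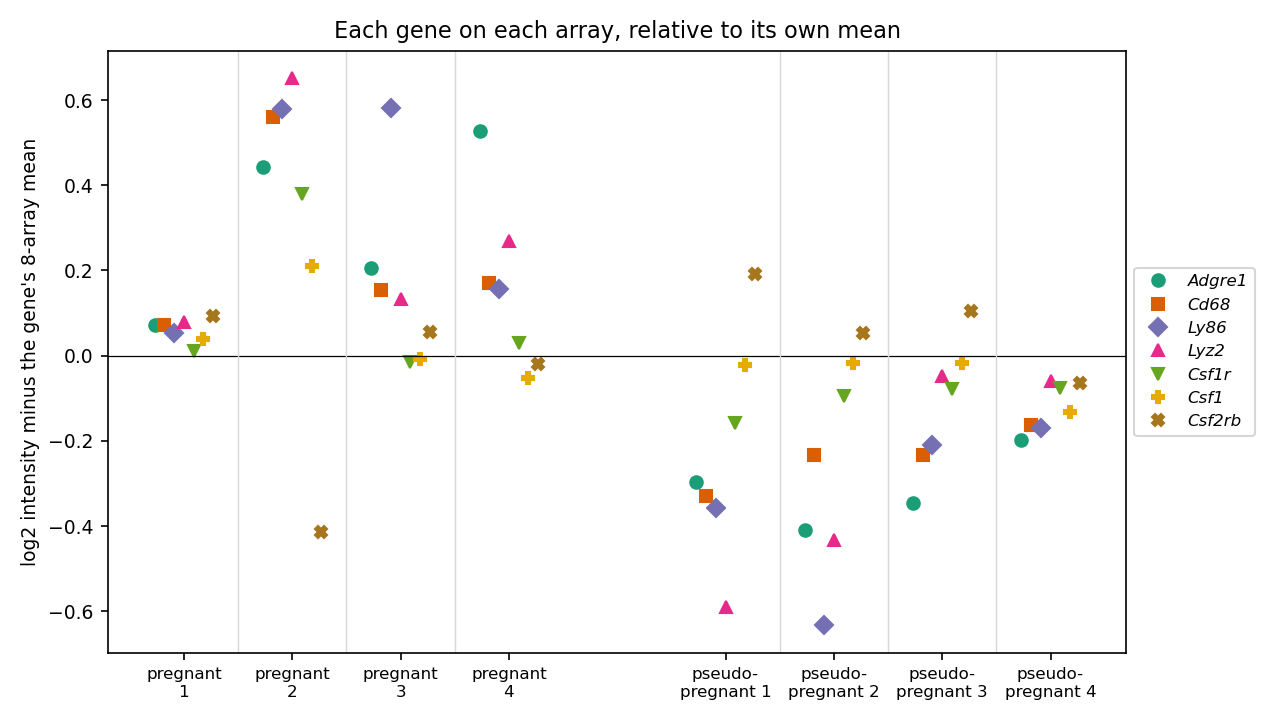
Log2 intensity of each of the 7 tested genes minus its own 8-array mean (y axis) on each array (x axis, 4 pregnant then 4 pseudopregnant). On pregnant replicate 2 the genes are spread most, with Lyz2 at the top and Csf2rb at the bottom.

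Aif1 encodes IBA1, an actin-binding protein of macrophages. It had 4.83, 4.76, 4.84 and 4.82 in pregnant replicates 1 to 4, against 4.87, 4.66, 4.63 and 4.77 in pseudopregnant replicates 1 to 4. Cd163, the scavenger receptor for haemoglobin bound to haptoglobin, had 4.38, 4.22, 4.31 and 4.08 in pregnant replicates 1 to 4, against 4.42, 4.05, 4.52 and 4.55 in pseudopregnant replicates 1 to 4. The groups overlapped for both genes. Fitted without the filter, the differences were 0.08 (limma adjusted p = 0.55) for Aif1 and -0.14 (0.55) for Cd163. RMA compresses differences at this end of the scale.

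Genes that work beside these were taken from 8 lists of 125 genes, with 102 measured. Of them 12 rose and 1 fell, a share of 11.8% higher, where 1.41% of all kept probe sets rose. Of tissue macrophage surface genes, 4 of 18 measured rose and 0 fell, with a median of 0.20. They were Ms4a7 (0.69 ± 0.077, limma adjusted p = 0.012), the pore-forming Mpeg1 (0.60, 0.024), the complement C5a receptor C5ar1 (0.50, 0.034) and the mannose receptor Mrc1 (0.43, 0.040). Cbr2, a carbonyl reductase gene, had the largest difference of this list in size and lay below 0, at -0.71 ± 0.17 (adjusted p = 0.061), with overlapping groups. Of other genes of resident macrophages, Lyve1 differed by -0.12 ± 0.094 (adjusted p = 0.47; -0.20 without pregnant replicate 2) and Stab1 by 0.05 ± 0.048 (0.53). Timd4, Marco and Vsig4 lay below the 40th percentile on all 8 arrays. Msr1 (0.44 ± 0.097, adjusted p = 0.053) lay above that percentile on the 4 pregnant arrays alone. Without Msr1, 4 of 17 measured tissue macrophage surface genes rose.

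Among 7 measured monocyte genes, 2 rose and 1 fell. The chemokine receptor Ccr2, which brings monocytes out of bone marrow, rose by 0.78 ± 0.15 (limma adjusted p = 0.038) and the integrin Itgam by 0.35 ± 0.054 (0.024). Plac8, which is not limited to monocytes, fell by 0.29 on the log2 scale (0.040). Of 12 measured transcription factors, 1 rose, Spi1, which encodes PU.1, by 0.33 ± 0.070 (0.0495). Its values of 6.38, 6.37, 6.61 and 6.52 in pregnant replicates 1 to 4 lay above all of 6.06, 6.11, 6.13 and 6.26 in pseudopregnant replicates 1 to 4. Irf8, the partner of PU.1 in monocytes, was higher by 0.31 (0.052), Zeb2 by 0.25 (0.064) and Runx1 by 0.50 (0.19), or by 0.24 (0.14) without pregnant replicate 2.

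Of 21 measured genes of CSF receptor signalling, 1 rose, the adaptor Tyrobp (DAP12), by 0.70 ± 0.14 (limma adjusted p = 0.045). The phosphatase Ptpn6 was higher by 0.23 (0.063), Vav1 by 0.43 (0.071) and the feedback inhibitor Cish, a target of STAT5, lower by 0.23 (log2 difference -0.23, 0.12). Of 9 measured genes of Toll-like receptor complexes, 2 rose, Cd180 and the endosomal receptor Tlr13 (0.71 ± 0.12, 0.028). Myd88, the adaptor of most such receptors, differed by -0.84 (0.097) and Lbp by -0.41 (0.20), or by -0.22 without pregnant replicate 2. Of 12 measured genes of haemoglobin and iron handling, 2 rose, the transferrin receptor Tfrc (0.73 ± 0.13, 0.033) and the fatty acid carrier Cd36 (0.60 ± 0.13, 0.047), both expressed by many cell types, and the second with overlapping groups. Of 15 measured lysosome and phagosome genes, 0 passed (limma; 5 at an unadjusted p under 0.05, against 23.7% of all kept probe sets), with the oxidase subunits Cybb (0.59, 0.058) and Cyba (0.28, 0.075) closest, followed by Ctss (0.33, 0.13) and Ncf1 (0.18, 0.15).

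The 13 companion calls fell to 6 with the replicate block and to 5 without pregnant replicate 2 (Ms4a7, Mpeg1, Itgam, Cd180 and Tfrc), and they lay between 1, without pseudopregnant replicate 1 or 3, and 10, without pseudopregnant replicate 4. That last was the one array whose absence moved the count by less than 1.5 times. Without pregnant replicate 2 the adjusted p was 0.057 for Spi1, 0.056 for Tyrobp, 0.074 for Mrc1, 0.060 for C5ar1, 0.055 for Ccr2, 0.066 for Plac8, 0.052 for Tlr13 and 0.085 for Cd36. Each of those 8 kept its direction. In whole uterus, more cells of a type and more RNA per cell cannot be told apart.

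**Figure D4:**
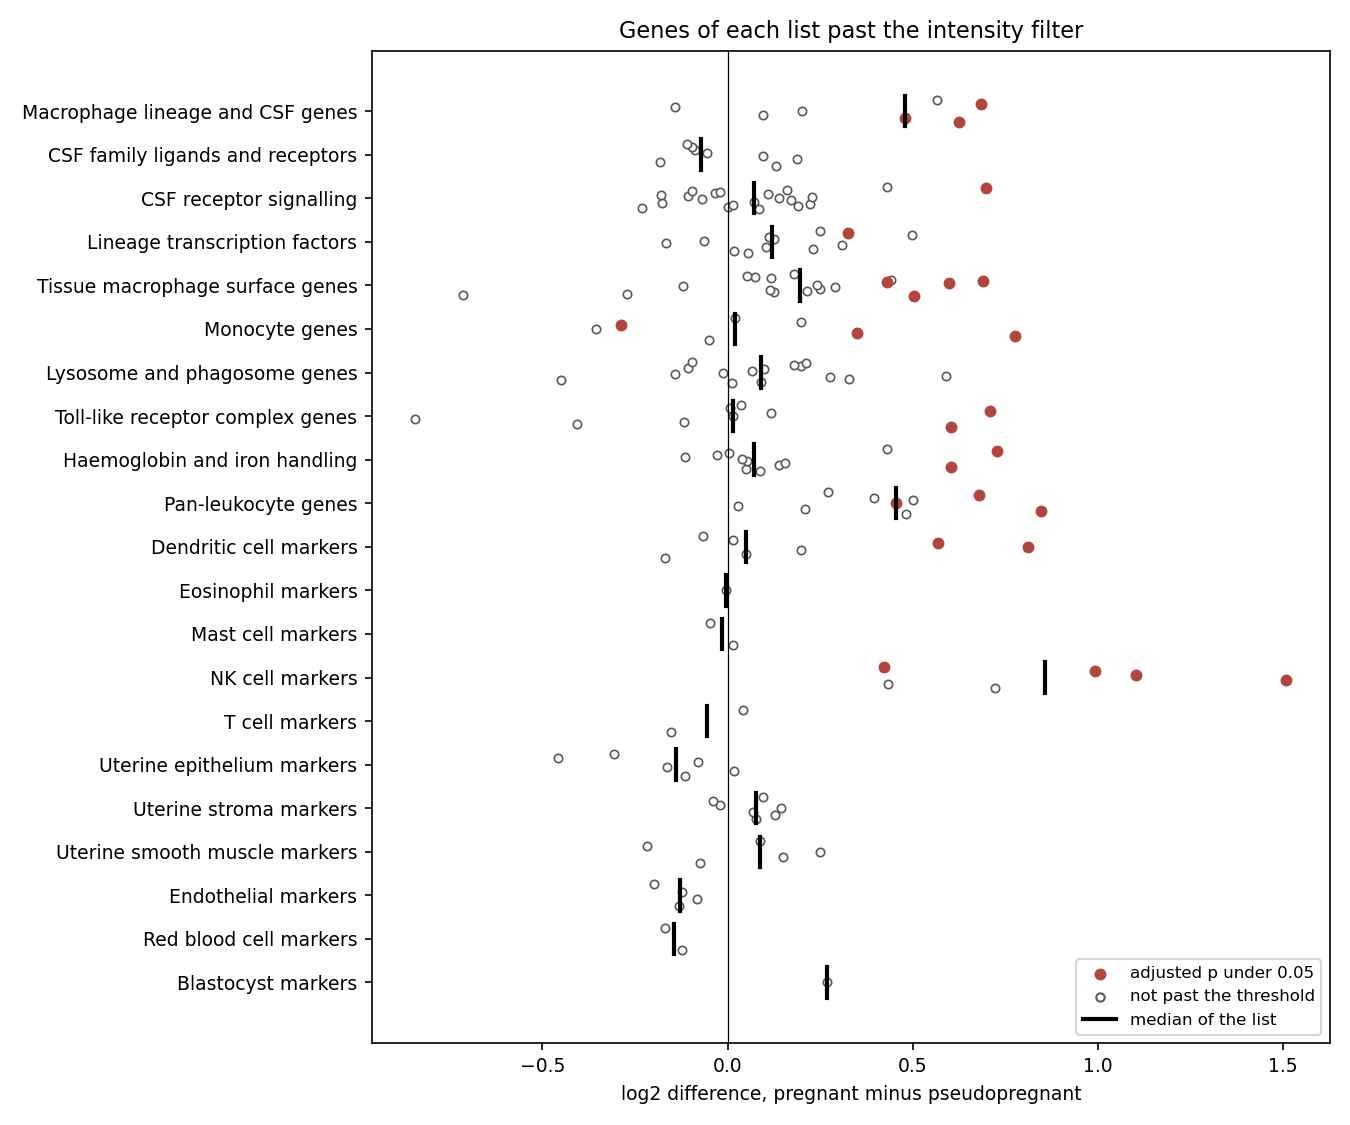
Log2 differences, pregnant minus pseudopregnant, of the measured genes of each list (points, filled where the adjusted p was under 0.05) with the list's median (bar). The macrophage lineage and CSF genes have a median of 0.48, close to the 0.46 of the pan-leukocyte genes, while the further CSF family genes centre on -0.07.

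By the root mean square distance over the 8 arrays, taken between log2 values centred on each gene's own mean, the 5 genes of 13037 nearest to Adgre1 were F630028O10Rik (0.083), Fcrls (0.093), Ms4a7 (0.10), Aoah (0.10) and C5ar1 (0.11). All 5 passed the threshold, with log2 differences of 0.52, 0.65, 0.69, 0.58 and 0.50. The distance includes the gap between the groups, so genes near Adgre1 have differences near its own. That they passed is therefore no separate support. Those nearest to Csf1r were Sec11c, Syde2, Usp14, Isoc1 and Cnih4 (distances of 0.041 to 0.047), and those nearest to Csf1 were Rad21, Ngef, Rbm38, Cep76 and Zbed3 (0.028 to 0.039). None of those 10 passed, and genes that vary little lie near one another by this measure.

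Among markers of other leukocytes, 9 of 27 measured genes rose, where 1.41% of all kept probe sets did, and all 9 were pan-leukocyte, natural killer (NK) or dendritic cell genes. Of 9 measured pan-leukocyte genes 3 rose, Cd53 (0.85 ± 0.11, limma adjusted p = 0.013), Ptprc, which encodes CD45 (0.68 ± 0.11, 0.026), and Itgb2 (0.46 ± 0.074, 0.026), and the summed linear intensity of the 9 was 1379 to 1731 on pregnant arrays, against 1025 to 1299 on pseudopregnant arrays. Of 6 measured NK cell markers 4 rose, by 0.42 for Prf1 to 1.51 for Gzmb, with Il2rb and Ncr1 between, and the sum over the 8 on the array was 517 to 913 on pregnant arrays, against 297 to 438 on pseudopregnant arrays. The sum over the 9 macrophage lineage and CSF genes was 1420 to 1849 on pregnant arrays, against 1104 to 1263 on pseudopregnant arrays. Such sums overlapped for tissue macrophage surface genes (2237 to 2463, against 2264 to 2468) and monocyte genes (985 to 1166, against 1019 to 1337). They also overlapped for the further CSF family, CSF receptor signalling and lysosome genes. A linear sum weighs the brightest genes most. Cbr2 was the brightest of the tissue macrophage surface genes (mean log2 8.47 pregnant, 9.19 pseudopregnant), while 15 of the 18 measured lay above 0. Plac8 was the brightest monocyte gene (8.93 and 9.22). Sums without these 2 genes were not taken. Sums of transcription factors and of iron handling genes were higher without overlap, and that of Toll-like receptor genes lower. The brightest genes of that last list were Myd88 (mean log2 9.13 pregnant, 9.98 pseudopregnant) and Lbp (9.17 and 9.58). Of its 9 measured genes 6 lay above 0, 2 rose and 0 fell. Of 7 measured dendritic cell markers 2 rose, Itgax (0.57 ± 0.11, 0.035) and Clec9a (0.81 ± 0.13, 0.026), the second above the 40th percentile on the 4 pregnant arrays alone. Clec9a and the NK factor Eomes (0.72, 0.057) thus passed the filter through pregnant uterus alone, and without such genes 1 of 6 dendritic markers, 4 of 5 NK markers and 8 of 25 of these leukocyte genes rose. The 9 calls over these and the other leukocyte lists became 3 without pregnant replicate 2 (Cd53, Gzmb and Ncr1), 1 without pseudopregnant replicate 1 or 3, 2 to 5 without any of 4 further arrays and 11 without pseudopregnant replicate 4. Without pregnant replicate 2 the limma adjusted p was 0.0503 for each of Ptprc, Itgb2, Clec9a and Il2rb, 0.065 for Itgax and 0.076 for Prf1. The part of these other leukocytes in the differences of the macrophage genes was not tested.

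The remaining lists held few measured genes or none that passed. The 10 neutrophil markers and the 5 B cell markers on the array had no member past the filter, and 8 of the 10 and 5 of the 5 lay below the 40th percentile on all 8 arrays, S100a8, Ly6g, Ms4a1 and Cd79a among them. The summed neutrophil signal was 196 to 230 on pregnant arrays, against 180 to 212 on pseudopregnant arrays. The 2 measured T cell markers Cd3e and Cd3g differed by -0.15 and 0.04 (-0.05 for Cd3g without pregnant replicate 2), the 2 mast cell markers Cpa3 and Tpsb2 by 0.02 and -0.05 (0.05 and -0.03 without it), and the eosinophil receptor Siglecf by -0.00 (-0.03). Of 25 measured markers of uterine epithelium, stroma, muscle, endothelium, red blood cells and blastocysts, 0 passed (limma; 4 at an unadjusted p under 0.05, namely Krt19, Myh11, Cdh5 and Krt7, against 23.7% of all kept probe sets), with a median of -0.07. The embryo genes Cdx2, Pou5f1, Nanog and Tfap2c lay below the 40th percentile on all 8 arrays.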

How the data were processed

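Total RNA of 8 mouse uteri was hybridised to 8 expression arrays, 4 pregnant and 4 pseudopregnant. The authors deposited a linear intensity per probe set, made with RMA per the submitters' processing notes; its software and settings were not given in the sources used here. This summary equalises the arrays' distributions and compresses changes of dim genes. The uteri were those with the best RNA, with integrity numbers of 6.9 to 8.7, per the labels' design text. The files give no scan dates or batches, so none could be tested.

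Of 35556 probe sets, 6617 with identifiers below the first listed in the platform's gene table were left out as controls, an inference. Of the other 28939, 21789 had 1 gene symbol, 1621 several and 5529 none; 21698 of the 21789 matched RefSeq gene numbers (GRCm38.p6). Intensities were log2 transformed, and the filter kept 17491. Where a gene had more than 1 probe set, the one highest on average stood for it. Groups were compared with limma 3.58.1 in R 4.3.3 (lmFit, eBayes, a group term, two-sided), adjusted over all kept probe sets, and checked on simulated data. Figures used matplotlib 3.10.9 in Python 3.11.15. The limma p-values set a difference against the spread within these groups of 4 samples. That spread is pooled over both groups and moderated over all kept probe sets. The number of arrays limits the precision.

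The 9 genes and the 22 lists of other genes were chosen with earlier results of these data known. The genes named are the 9, the genes of each list past the threshold, otherwise up to 4 with the smallest p, and the 5 nearest profiles of 3 genes. Lyve1, Stab1, Cbr2, Eomes, Il34, Csf2ra, Csf2rb2, Lyz1 and genes below the filter were added for their role. Msr1 was added because it passed the filter through pregnant uterus alone. Alternatives were a replicate block, no filter, a stricter filter, median centring, cyclic loess, array weights, an intensity trend, averaged probe sets and each array left out.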

Additional observations from a re-analysis of the deposited data

Results flagged for a closer look

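Of the 18 sets of 4 values formed by the 9 genes in each group, 2 held an array far from the others by Dixon's criterion, which chance alone meets in about 1 of 20 sets. Csf1r stood at 7.37 in pregnant replicate 2, where pregnant replicates 1, 3 and 4 had 6.98 to 7.02, and that array carries much of the difference in Csf1r (0.20 with it and 0.11 without it). Csf1 stood at 7.07 in pseudopregnant replicate 4, where the other pseudopregnant arrays all lay at 7.18, and the difference in Csf1 was 0.09 with it and 0.07 without it.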

How the results depend on the processing

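Directions held throughout: Adgre1, Cd68, Ly86, Lyz2, Csf1r and Csf1 stayed higher and Csf2rb lower in pregnant uterus under all 16 alternatives. The replicate block, the changed filters, the intensity trend and averaged probe sets leave each of these differences as in the main fit. Only the other alternatives could therefore change a direction. The calls did not hold as well. Adgre1 passed under 12 of 16 alternatives (adjusted p 0.016 to 0.072), Cd68 under 6 (0.030 to 0.12) and Ly86 under 5 (0.040 to 0.11), while Lyz2 (0.062 to 0.17), Csf1r (0.17 to 0.35), Csf1 (0.31 to 0.74) and Csf2rb (0.34 to 0.86) passed under none of them. Of the 3 genes that rose, 1 passed with the replicate block, 1 with cyclic loess and 0 without the filter, and 0 to 2 with single arrays left out. Over all probe sets the 319 calls became 174 with the replicate block, 54 without the filter, 710 with an intensity trend, and 40 to 235 with single arrays left out. The 13 companion genes called became 6 with the block, 3 without the filter and 1 to 10 with single arrays left out, and the 9 other leukocyte genes became 4, 1 and 1 to 11. Of the uterine markers, 0 of which were called, 1 passed with cyclic loess and 1 with an intensity trend, and 0 with any array left out. More probe sets are tested without the filter and fewer arrays are used when one is left out; the cause of the other changes was not tested. The replicate numbers share no stated litter or day, and the deviations of same-numbered arrays correlated at 0.24, 0.02, -0.10 and 0.04, so the block is no paired test. Median centring and cyclic loess moved the median of all kept probe sets to 0.01 and -0.00, from 0.00.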

Other observations

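Of 52 listed genes below the intensity filter, 5 were higher and 1 lower in pregnant uterus without overlap of the groups, and 26 had a difference below 0. Of all kept probe sets, 9.23% were higher and 5.39% lower without overlap, so the 5 are no excess over that share. The share over all probe sets below the filter was not taken. The genes named here were chosen after their values were seen and carry no test. Fcgr4, an activating Fc receptor of monocytes, stood at 5.12, 5.21, 5.36 and 5.56 in pregnant replicates 1 to 4, against 4.62, 4.66, 4.69 and 4.99 in pseudopregnant replicates 1 to 4. Tlr7, an RNA sensor of macrophages and dendritic cells, stood at 4.53, 4.69, 4.59 and 4.60 on those pregnant arrays, against 4.13, 3.96, 4.15 and 4.03 on those pseudopregnant arrays. Retnlg, of neutrophils, stood at 5.13, 5.22, 6.00 and 5.68 in pregnant replicates 1 to 4, against 4.63, 4.76, 4.89 and 4.73 in pseudopregnant replicates 1 to 4. Of the 10 neutrophil markers, all below the filter, 6 lay below 0 and 2 were higher without overlap, Retnlg and S100a9. Ngp was lower without overlap, at 3.13, 3.28, 3.29 and 3.14 in pregnant replicates 1 to 4, against 3.62, 3.40, 3.45 and 3.33 in pseudopregnant replicates 1 to 4. The fifth of the higher genes was Cd3d, a T cell marker.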
